A study of Drosophila melanogaster with 2 samples.

Results

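In type II neuroblast lineages with brat RNAi, the stress-inducible fly genes Hsp70Ab and Hsp70Bb were higher and the noncoding RNA gene Hsromega was lower. The rest of the 10 heat shock genes examined lay closer to the control. Read pairs may sit on the wrong Hsp70 copy, and the 6 near-identical copies summed were 1.84-fold higher. The 10 genes were chosen by name from the 14284 genes of the count tables. They are the inducible chaperone genes Hsp70Ab, Hsp70Bb and Hsp68, the constitutive Hsp83 and Hsc70-4, the small heat shock genes Hsp26 and Hsp27, the co-chaperone gene DnaJ-1, the transcription factor gene Hsf, and Hsromega. All 10 had at least 20 read pairs over both libraries, a minimum that 9142 genes passed and that is called measured here.

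Heat shock factor, the product of Hsf, turns on chaperone genes when proteins misfold, as they do in heat. Hsp70 chaperones bind unfolded proteins with the help of J-domain partners such as DnaJ-1, Hsp90 chaperones such as Hsp83 help kinases and receptors to mature, and small heat shock proteins keep unfolded proteins from clumping. In flies several of these genes also work without stress, Hsc70-4 and Hsp83 in nearly all cells and Hsp26 and Hsp27 at set stages of development. Hsromega makes no known working protein. Its long nuclear transcripts gather RNA-binding proteins into nuclear bodies called omega speckles, and a short spliced transcript goes to the cytoplasm.

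The cells came from larval brains of Drosophila melanogaster and were sorted as type II neuroblasts, a class of neural stem cell, together with progeny born over 24 h. One group was a control, and the other expressed RNAi against brat, a translational repressor whose loss is known to turn these lineages into tumours. Both groups were late 3rd instar larvae with UAS-dicer2, the drivers that the labels name wor-Gal4 and asense-Gal4, the membrane marker UAS-CD8::GFP used for sorting, and tub-Gal80ts, which blocks Gal4 in the cold. The brat RNAi group also carried the hairpin of VDRC line 105054. Larvae of both groups grew at 18 °C and spent the last 24 h before dissection at 29 °C. The warming was thus shared, no unshifted library was analysed here, and the values below compare genotypes at 29 °C and measure no response to heat.

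Each group was 1 library, so there is no replicate check and no test was run. The control had 16566265 read pairs assigned to genes and the brat RNAi library 15236504. Ratios below are log2 of brat RNAi over control after scaling by size factors, so positive values are higher with brat RNAi. The range in parentheses is a 95% exact counting interval, which leaves out all other variation between libraries. The targeted gene brat had 12210 control and 6312 brat RNAi read pairs. All 6 neuroblast markers were detected, with summed normalised counts of 37072 in the control against 55235 with brat RNAi. Of these sums mira alone gave 24012 and 32542, and single log2 ratios ran from 0.44 for mira to 1.25 for grh. Intermediate progenitor markers summed to 7456 and 7805 and neuron markers to 10260.5 and 11086, each with single ratios of either sign. All 3 glial markers were detected as well (10096 against 10492). The hemocyte markers went opposite ways, Hml with 4325 control and 5039 brat RNAi read pairs and He with 81 and 27. The gene ase, known to be absent from type II neuroblasts and present in their later progenitors, had 1790 and 1236 read pairs. In sorted bulk samples, fewer cells of a type and less RNA per cell cannot be told apart.

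Of the 10 genes, 2 were at least 2-fold higher with brat RNAi and none was at least 2-fold lower. Among all measured genes these shares were 1.15% and 4.48%. They are the background for every count of 2-fold genes in the lists below. With a 1.5-fold threshold Hsromega joined as the 1 lower gene, where 5.93% of measured genes were higher and 8.32% lower. The ratio was above 0 in 7 of the 10 genes (50.4% of measured genes) and below 0 in 3 (49.6%). The counting interval lay wholly above 0 in the same 7 (30.7% of measured genes) and wholly below 0 in the same 3 (24.3%). The median log2 ratio of the 10 genes was 0.22, against 0.00 over all measured genes.

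Level matters for that reading. Over the 2958 genes that averaged 1000 or more normalised read pairs, called abundant here, the median log2 ratio was 0.17 and 90% of ratios lay between -0.30 and 0.68. The 25th percentile was -0.03, so most abundant genes were above 0. Counting intervals also narrow as read pairs increase. Shares of signs and intervals over all measured genes are thus an unlike background for abundant genes, here and in the lists below. Such shares among abundant genes alone were not computed. Abundant genes at least 2-fold higher numbered 25 (0.845%), and none was 2-fold lower. Of the 10 heat shock genes 9 were abundant, all but Hsp70Ab. Hsp70Bb and Hsromega lay outside the range that held 90% of abundant genes, and the other 7 abundant members lay inside it.

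**Figure D1:**
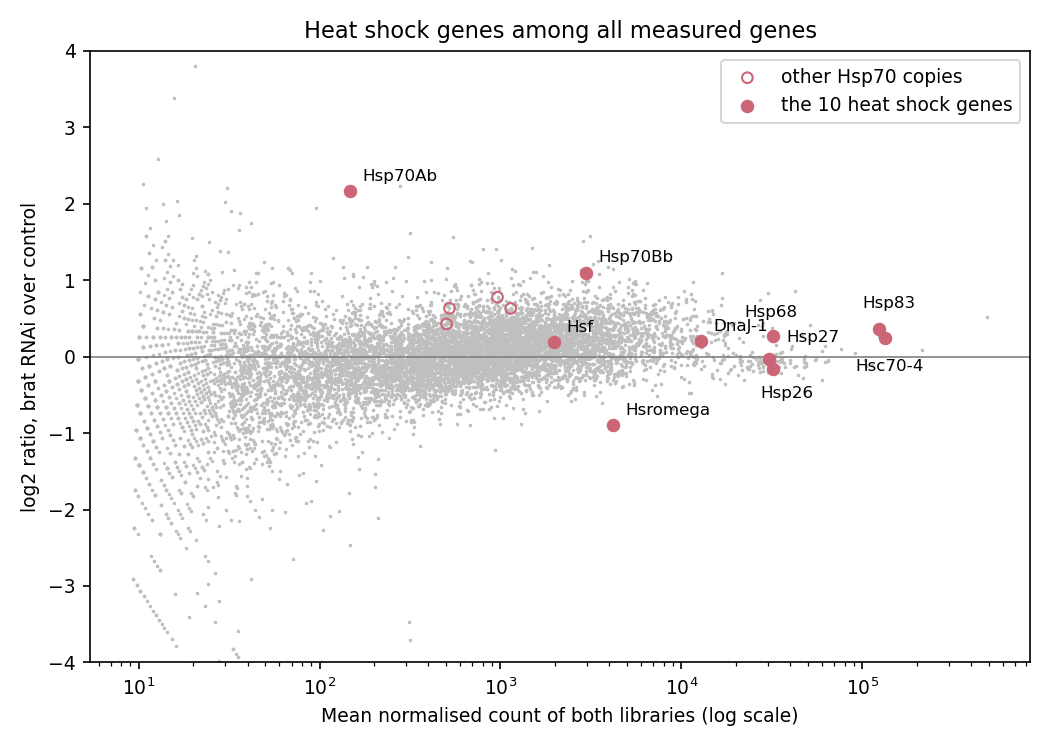
Each grey point is 1 of 9120 measured genes with read pairs in both libraries, by mean normalised count (log scale) and log2 ratio, brat RNAi over control; 33 genes lie beyond the axis limit of 4. Hsp70Ab (2.17) and Hsp70Bb (1.10) stand above and Hsromega (-0.90) below most genes of similar level, and the other filled points lie among them.

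Hsf (FBgn0001222), the regulator, had 2020 control and 1922 brat RNAi read pairs, or 1845 and 2104 after normalisation. Its log2 ratio of 0.19 (0.10 to 0.28) lay next to the median of abundant genes. Beside it stand the factors that work with Hsf or hold RNA polymerase paused at heat shock promoters. Of 19 such genes measured, Hsf included, none was 2-fold apart, and log2 ratios ran from -0.37 for Cdk9, a kinase that releases paused polymerase, to 0.59 for Trl, the GAGA factor. Their median was 0.19, or 0.05 with scaling by total count. Above 0 were 14 of 19 (50.4% of measured genes), 11 of 19 with scaling by total count and 10 of 18 once corrected for the length and level of transcripts. The most abundant were 14-3-3epsilon, an adaptor of phosphorylated proteins, at 0.06 and fs(1)h, a bromodomain protein of active chromatin, at 0.53.

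Hsp70Bb (FBgn0013278) is 1 of 6 near-identical inducible Hsp70 genes. It had 2068 control and 3686 brat RNAi read pairs, or 1889 and 4036 after normalisation. The level with brat RNAi was thus 2.14-fold higher, a log2 ratio of 1.10 (1.02 to 1.17) that fell short of 2-fold, at 0.95, when scaled by total count. Counting Hsp70Bb itself, 19 of the abundant genes (0.642%) had a ratio that high.

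Hsp70Ab (FBgn0013276) had the highest ratio of the 10 genes on the lowest count. It had 59 control and 221 brat RNAi read pairs, a 4.49-fold higher normalised level and a log2 ratio of 2.17 (1.75 to 2.61). It stayed above 2-fold with the other scalings and corrections, between 2.03 and 2.28. In the authors' deposited table the adjusted p was 0.00896 for Hsp70Ab and 0.212 for Hsp70Bb, from the same pair of libraries and no replicates. That table put 49 of 12401 genes (0.395%) below 0.05, 14 of them (0.113%) higher with brat RNAi.

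Because the copies share nearly all of their sequence, a read pair may have been placed on the wrong copy. Both count tables list 0 pairs as aligned to more than one place, so how such pairs were handled is not visible in them. A sum over the copies does not depend on which copy a pair was given to. It would still lack any pairs left out of counting because they fit several copies. Hsp70 levels set against other genes may thus be too low. The 6 copies summed to 4802 control and 7389 brat RNAi read pairs, a 1.84-fold higher normalised level with a log2 ratio of 0.88 (0.83 to 0.94). The family as a whole thus stayed under the 2-fold threshold that the named copies passed, with a ratio above those of 97.9% of measured genes.

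All 6 copies were higher with brat RNAi, where 50.4% of measured genes were. The 6 copies stayed higher under each other scaling and correction tried. Hsp70Aa, which lies head to head with Hsp70Ab, had 777 and 1111 read pairs at a log2 ratio of 0.78 (0.64 to 0.91). In the other group of copies Hsp70Ba had 979 and 1264 read pairs at 0.63 (0.51 to 0.75), and Hsp70Bbb had 449 and 580 at 0.63 (0.45 to 0.81). Hsp70Bc, with 470 and 527, had the lowest ratio of the family, 0.43 (0.24 to 0.61).

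Copies were also summed by locus. Hsp70Aa and Hsp70Ab as a pair had 836 and 1332 read pairs at 0.93 (0.81 to 1.06), and the other 4 copies had 3966 and 6057 at 0.87 (0.81 to 0.93). These intervals overlap. Without Hsp70Ab and Hsp70Bb, the remaining 4 copies were at 0.64 (0.57 to 0.72).

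The division of read pairs among the copies was uneven and differed between the libraries. Hsp70Bb held 43.1% (41.7% to 44.5%, exact interval) of all Hsp70 read pairs in the control against 49.9% (48.7% to 51.0%) with brat RNAi. Hsp70Ab held 1.23% (0.94% to 1.58%) against 2.99% (2.61% to 3.41%). The shares of Hsp70Ba, Hsp70Bbb and Hsp70Bc were lower with brat RNAi, with intervals that did not overlap, and those of Hsp70Aa, 16.2% and 15.0%, had overlapping intervals. In the BDGP6 annotation Hsp70Ab overlaps CG3281 on the opposite strand, which had 312 and 257 read pairs. Whether the counting used strand is unknown. If it did not, pairs that fit both genes would be kept apart as ambiguous and be missing from both counts.

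**Figure D2:**
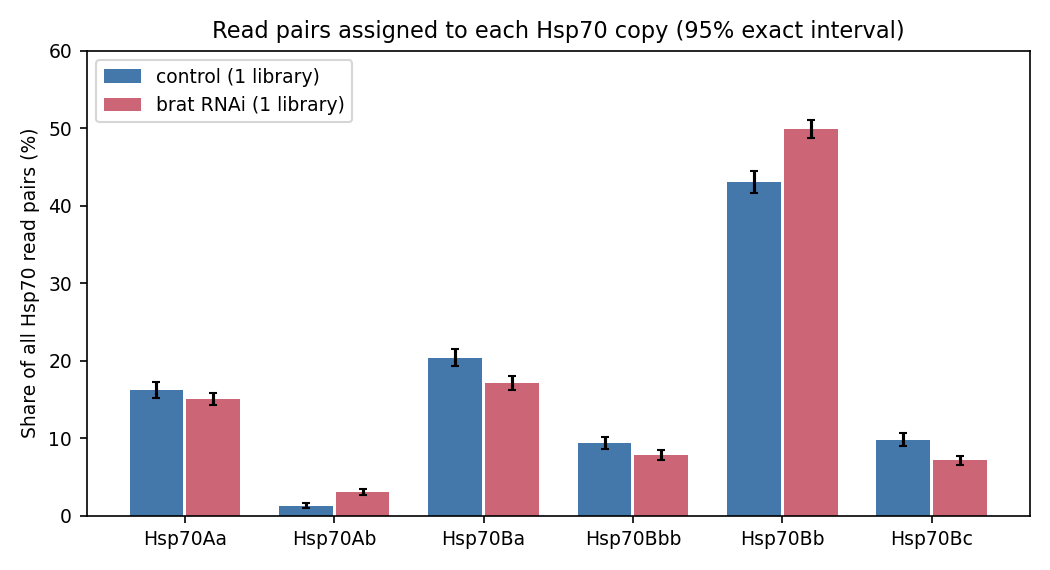
Bars give the share of all Hsp70 read pairs (percent, axis from 0) assigned to each of the 6 copies in either library, in their order along the chromosome, with 95% exact intervals. Hsp70Bb holds the largest share in both libraries, 43.1% and 49.9%, and Hsp70Ab the smallest, 1.23% and 2.99%.

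Genes beside the Hsp70 loci did not share one direction. The 3 nearest measured genes on each side of the Hsp70Aa and Hsp70Ab pair had log2 ratios from -0.06 to 0.97 with a median of 0.15, and those beside the other group ran from -0.80 to 0.32 with a median of -0.35. UAS vectors commonly carry a piece of the Hsp70 promoter, and the brat RNAi larvae carried 1 UAS transgene that the control lacked. Dcr-2, the gene of the UAS-dicer2 transgene in both groups, had 33199 control and 50003 brat RNAi read pairs at 0.85 (0.83 to 0.87). The eye colour gene w, a common marker of fly transgenes, had 1776 control and 25973 brat RNAi read pairs. The part of transgene reads in the Hsp70 counts was not tested.

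Hsp68 (FBgn0001230), an inducible relative of Hsp70 outside the 6 copies, was far more abundant and differed less. It had 32055 control and 32163 brat RNAi read pairs, 29277 and 35215 after normalisation, with a log2 ratio of 0.27 (0.24 to 0.29). Per kilobase of transcript its level was 7.04 times the counted level of the summed Hsp70 copies in the control and 4.59 times with brat RNAi. By count it ranked 72 among all genes of the control and 45 with brat RNAi. On the opposite strand it overlaps CG6000, which had 278 and 184 read pairs.

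Hsc70-4 (FBgn0001219), the cognate Hsp70 that cells make without stress, had the highest count of the 10 genes and ranked 3 in either library. It had 134088 control and 132242 brat RNAi read pairs, 122468 and 144789 after normalisation, at a log2 ratio of 0.24 (0.23 to 0.25). Per kilobase, the summed inducible copies as counted stood at 3.56% of the Hsc70-4 level in the control and at 5.56% with brat RNAi. Hsp68 stood at 25.1% and 25.5%, nearly the same fraction in both libraries.

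The cognate Hsp70 genes of other compartments differed from each other. Of 6 measured genes of cognate Hsp70 and Hsp110 type none was 2-fold apart. Above 0 were 5 of the 6 (50.4% of measured genes), 4 with scaling by total count and 2 after correction for transcript length and level. Their median log2 ratio was 0.17, which became 0.03 with that scaling and -0.08 after that correction. Hsc70-3, the Hsp70 of the endoplasmic reticulum, was at 0.15, and the mitochondrial Hsc70-5 had 7503 and 9842 read pairs at 0.65 (0.61 to 0.70). Hsc70-1 had 19 and 10 read pairs and an interval from -1.93 to 0.51, so its direction was not detectable at this depth.

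Hsp83 (FBgn0001233), the cytosolic Hsp90, had 118254 control and 127090 brat RNAi read pairs and ranked 7 in the control and 4 with brat RNAi. After normalisation this was 108007 and 139148, or 28.8% higher, with a log2 ratio of 0.37 (0.35 to 0.38). Counting error is small at this depth, yet 769 abundant genes (26%) had a ratio as high or higher. On the opposite strand it overlaps CG14966, which had only 260 and 151 read pairs. Of 18 Hsp90 relatives and co-chaperones measured, 1 was at least 2-fold higher and none lower, against 1.15% and 4.48% of measured genes. The median log2 ratio of the 18 was 0.10, or -0.04 with scaling by total count. The gene past 2-fold was shu, a co-chaperone of the germline piRNA pathway, with 455 and 894 read pairs at 1.24. Gp93, the Hsp90 of the endoplasmic reticulum, was at 0.02 (-0.02 to 0.05).

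DnaJ-1 (FBgn0263106), a heat-inducible J-domain partner of Hsp70, had 13029 control and 12474 brat RNAi read pairs, 11900 and 13658 after normalisation, at a log2 ratio of 0.20 (0.16 to 0.23). Per kilobase it stood at 11.1% of the Hsc70-4 level in the control and 10.8% with brat RNAi. Of 13 J-domain genes measured, 1 was at least 2-fold higher and none lower, against 1.15% and 4.48% of measured genes. Above 0 were 10 (50.4% of measured genes), or 7 with scaling by total count and 7 after correction for length and level. Their median log2 ratio was 0.14, or 0.00 with scaling by total count. The gene past 2-fold was l(2)tid, a mitochondrial J protein, with normalised counts of 1132 and 2592 at 1.20 (1.10 to 1.30). Droj2, another abundant J protein, was at 0.27 (0.24 to 0.31). Counts and medians for the J-domain genes leave out any that were dropped from the lists after values were seen, and hold for the kept genes only. The dropped genes had ratios of both signs, such as CG7387 at -0.79, CG7133 at -0.55, CG3061 at 0.68 and CG8531 at 0.47. Shares and medians with the dropped genes put back were not computed. Of all genes so dropped, CG12020 alone was 2-fold apart, at -1.11.

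Hsp26 (FBgn0001225) and Hsp27 (FBgn0001226), small heat shock genes of one cluster, differed little between the libraries. Hsp26 had 37199 control and 27840 brat RNAi read pairs, or 33975 and 30481 after normalisation, a log2 ratio of -0.16 (-0.18 to -0.13). Hsp27 had 33941 and 27759 read pairs, or 31000 and 30393, a log2 ratio of -0.03 (-0.05 to -0.01). Both signs turned, to 0.02 for Hsp26 and 0.06 for Hsp27, when corrected for transcript length alone, and stayed negative with the other scalings and with correction for length and level. In these libraries the ratio went up with transcript length, from a median of -0.24 in the shortest of 10 length classes to 0.32 in the longest, and Hsp26 falls in length class 2 and Hsp27 in class 4. Per kilobase, Hsp26 stood at 1.59 times Hsp27 in the control and 1.45 times with brat RNAi.

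The measured small heat shock genes, 8 of 10 listed, were all below 0, as were 49.6% of measured genes. They were below 0 also with scaling by total count and with TMM factors, which move the median of all measured genes to -0.14 and -0.02. With correction for length alone 3 of the 8 were above 0, and with correction for length and level 1 was. Their median log2 ratio was -0.20, or -0.34 with scaling by total count and -0.15 after correction for length and level. Summed, they had 129697 control and 96944 brat RNAi read pairs, which after normalisation is 10.4% lower. Hsp23, the most abundant, had 52504 and 37040 read pairs at -0.24 (-0.26 to -0.22), Hsp67Ba was at -0.20 (-0.27 to -0.13) and Hsp67Bc at -0.39 (-0.56 to -0.21).

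Past 2-fold in this list was l(2)efl alone, 1 of 8 genes, where 4.48% of measured genes were lower. This alpha-crystallin relative known from muscle had 107 and 40 read pairs at -1.16 (-1.72 to -0.62). It fell short of 2-fold at -0.74 after correction for length and level and at -0.92 after correction for length alone. The muscle markers Mhc (65 and 25 read pairs) and Act57B (163 and 51) were lower too. The 3 germline markers summed to 947 normalised counts in the control and 8.76 with brat RNAi, where osk was at 0. Of these germline sums dhd alone gave 875 and 4.38. The part of either tissue in the small heat shock genes was not tested. Hsp22 was listed at 0 in both libraries and Hsp67Bb had 8 and 10 read pairs. In the BDGP6 annotation these genes overlap on the same strand, and the count tables keep pairs that fit more than one gene apart as ambiguous.

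Hsromega (FBgn0001234) had the lowest ratio of the 10 genes. It had 5952 control and 2659 brat RNAi read pairs, or 5436 and 2911 after normalisation. That is 46.4% lower, a log2 ratio of -0.90 (-0.97 to -0.83), and its rank by count was 438 in the control and 1165 with brat RNAi. It was the only abundant gene with a ratio that low (0.0338%), followed closely by Ilp2, an insulin-like peptide gene, at -0.89. The targeted gene brat was at -0.69. With the minimum lowered to an average of 500, Hsromega was second lowest of 4437 genes, after HLHmbeta, a Notch target gene, at -1.22. The authors' deposited table gave Hsromega an adjusted p of 0.718, and the 7 members other than Hsromega, Hsp70Ab and Hsp70Bb a value of 1.

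No scaling or correction tried brought Hsromega closer to 0. With scaling by total count, which shifts all genes by -0.14, it was at -1.04, and with TMM factors at -0.93. After correction for length and level it was at -1.09, past 2-fold, as were 2.47% of genes lower and 2.08% higher on that scale. Only brat, at -1.14, was lower among 2877 abundant genes so corrected. The 3 nearest measured genes on each side of Hsromega had log2 ratios from -0.74 to 0.35 with a median of -0.10. Its annotated transcripts run from 1176 to 21216 bases, and the corrections used their median length, 2776. Corrected values and ranks with another length were not computed. A count per gene does not show which of the transcripts differed.

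Genes of proteins known to bind Hsromega RNA or to lie in omega speckles showed no 2-fold difference. Such differences were few among all measured genes too, 1.15% higher and 4.48% lower. Of the 18 speckle genes measured, 16 were above 0 (50.4% of measured genes). These were 11 of 18 with scaling by total count and 8 of 17 after correction for length and level. Their median log2 ratio was 0.18, which became 0.04 with scaling by total count and -0.01 after correction for length and level. Hrb27C, an hnRNP protein, had 19213 and 21917 read pairs at 0.45 (0.42 to 0.48), and Hrb87F, an hnRNP protein of the speckles, was at 0.31 (0.26 to 0.35). Pep, a zinc finger protein on nascent RNA, had 18574 and 14685 at -0.08 (-0.11 to -0.05).

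**Figure D3:**
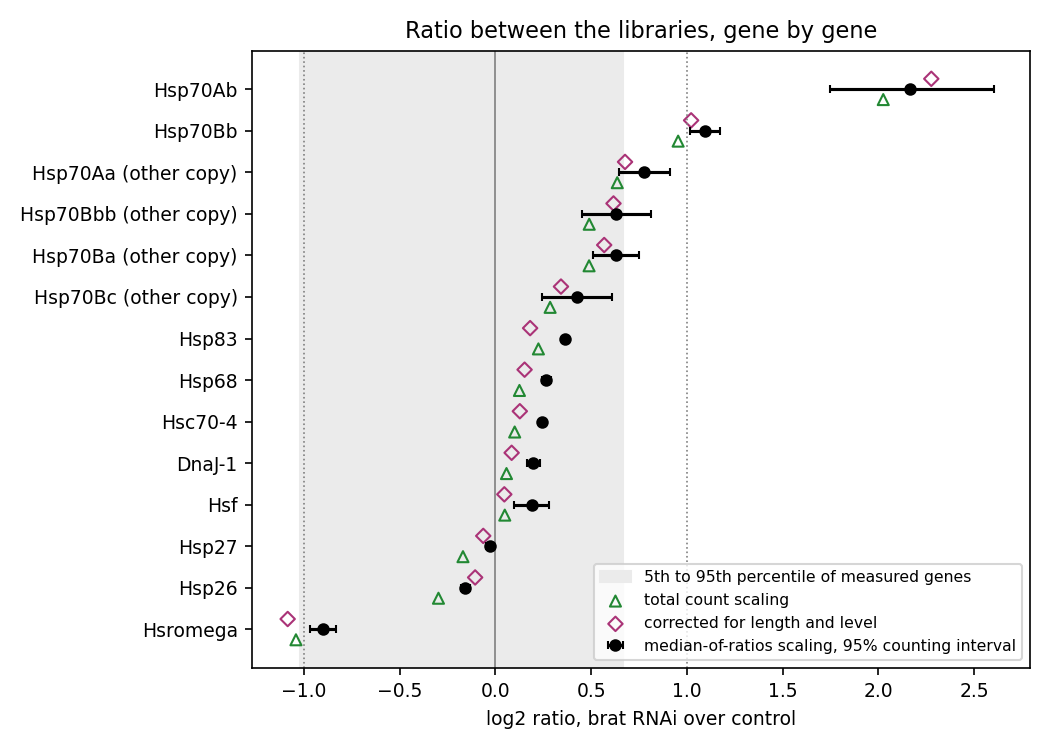
Filled points give log2 ratios, brat RNAi over control, for the 10 genes and the 4 other Hsp70 copies, with 95% counting intervals, and open symbols the ratio with total count scaling and after correction for length and level. The grey band spans -1.02 to 0.67, which holds 90% of measured genes, and the dotted lines mark 2-fold; Hsp70Ab, Hsp70Bb and Hsp70Aa lie right of the band, and Hsromega lies near its left edge.

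Compared per kilobase of median transcript length, normalised levels in the control were highest for Hsc70-4 (52359), Hsp83 (38077) and Hsp26 (34528). Hsp27 (21739), Hsp68 (13123) and DnaJ-1 (5838) followed. The lowest levels were those of Hsromega (1958), Hsp70Bb (805), Hsf (650) and Hsp70Ab (22.7). With brat RNAi the order was the same except that Hsp70Bb (1720) stood above Hsromega (1049). The place of Hsromega rests on the transcript taken for its length, since its control level was 4623 with the shortest and 256 with the longest. Without replicates it is unknown which neighbours in this order differ beyond their spread. All 10 genes made up 2.29% of the control gene counts and 2.42% of those with brat RNAi.

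**Figure D4:**
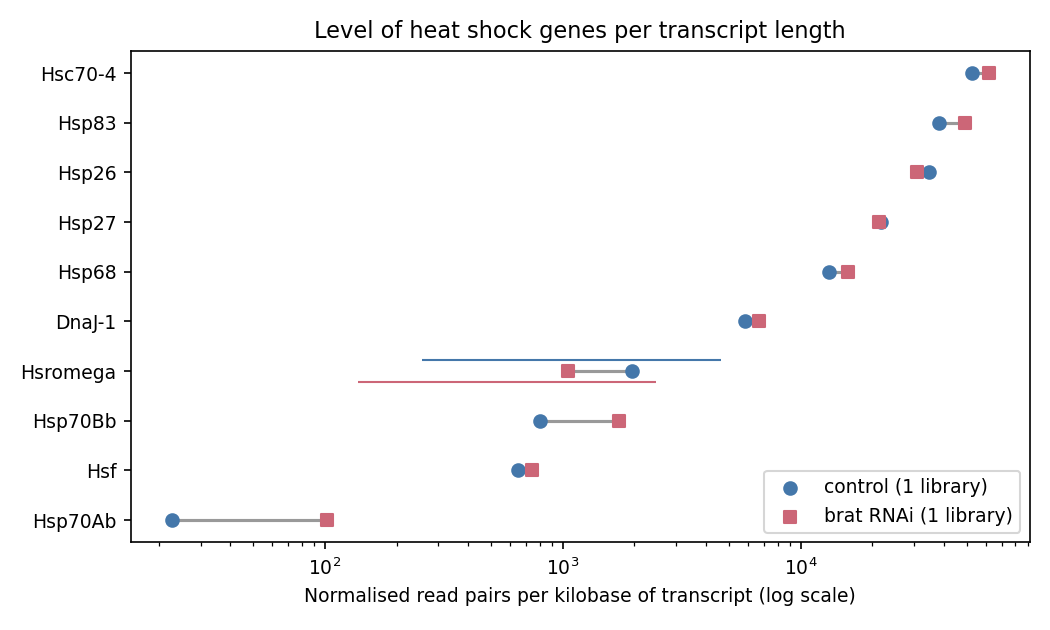
Points give normalised read pairs per kilobase of median transcript length (log scale) for each gene in the control (circles) and the brat RNAi library (squares), and the thin lines at Hsromega give its range over annotated transcripts. Hsp70Ab, Hsp70Bb and Hsromega have the widest gaps between the libraries, and Hsc70-4 has the highest level in both, 52359 and 61902.

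Among the chaperone and stress lists, the inducible Hsp70 copies had the highest median log2 ratio, 0.70, or 0.65 after correction for length and level. The small heat shock genes had the lowest, -0.20, with the remaining lists between -0.14 and 0.20. After that correction they were at -0.15 and no longer lowest, with oxidative and metal stress at -0.19 and the unfolded protein response at -0.17. The lists differ in size and no difference between them was tested.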

How the data were processed

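For both polyA RNA libraries the authors deposited raw counts (read pairs per gene) and a table comparing them. The submitters' processing notes name DESeq 1.8.3, HTSeq, TopHat 1.4.1 and BWA 0.6.1. Their roles, the build of the genome and the use of strand in counting were not given in the sources used here. Per the file headers, the authors' table has base means (normalised counts, a signal never below 0), log2 fold changes and adjusted p-values. Its log2 values are control over brat RNAi and were reversed here; all 10987 finite values matched the ratios computed here to 1e-06.

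Pairs given to no gene (22.7% of the control and 27.2% of the brat RNAi table) stayed out of all sums. Counts were divided by median-of-ratios size factors (1.09 and 0.913). Log2 ratios have exact Clopper-Pearson intervals at 95%, computed with Python 3.11.15 and scipy 1.17.1; PCR reads are not independent molecules, so these cover counting error only. A gene was called 2-fold apart when its log2 ratio reached 1 or -1 and the interval left out 0. With 1 library per group no test was possible. Alternatives were total count scaling, TMM factors (edgeR 4.0.16), minimums of 1 and 100 summed counts, a 1.5-fold threshold, summed Hsp70 copies, and subtraction of the median ratio of genes in the same of 10 classes of transcript length, alone or followed by 10 classes of level. Transcript lengths, current names, overlaps and gene order came from the BDGP6 annotation, with a length for 97.3% of measured genes. No coordinates are given, since the build of the counts may differ. The computation was tested on simulated counts.

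The 10 genes and all lists were chosen with earlier results of these data known. From each list, genes 2-fold apart (up to 4) and the 2 most abundant genes were named. The other genes named were chosen after their values were seen, apart from the Hsp70 copies, brat and the markers. A further 21 genes, 19 of them with no family name in the annotation, were dropped from the lists after values were seen; 1 of these, CG12020, was 2-fold apart, at -1.11. CG11267 was then moved to the chaperonin list.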

Additional observations from a re-analysis of the deposited data

Results flagged for a closer look

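Read pairs that overlapped no annotated gene enter none of the heat shock gene counts. With brat RNAi they made up 26.6% of all counted pairs and in the control 21.95%, and they are listed here as a signal outside the main measurement that was higher than in the control. Without replicates the usual spread of this share is unknown, and its part in the ratios of the heat shock genes was not tested.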

How the results depend on the processing

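The count of genes at least 2-fold higher, 2, became 1 with scaling by total count, as Hsp70Bb dropped below 2-fold, and 0 with the Hsp70 copies summed into 1 feature. The count at least 2-fold lower, 0, became 1 with total count scaling, with correction for length and level, and with a 1.5-fold threshold, each time through Hsromega. The median log2 ratio of the 10 genes, 0.22, was 0.079 with total count scaling, 0.20 with TMM factors and 0.11 after correction for length and level. The summed Hsp70 copies, at 0.88, were at 0.74 with total count scaling and 0.77 after that correction. Total count scaling and TMM factors shift all ratios by a constant, -0.14 and -0.02. With correction for length alone the median was 0.23 and the summed copies were at 0.90. For these results the lower values thus came with the level step. Why ratios go with level was not tested. Both counts were the same with minimums of 1 and 100 summed counts. Of 40 values of single genes under another scaling or correction, 2 changed sign, those of Hsp26 (0.02) and Hsp27 (0.06), under the correction for length alone, which was added after seeing the data. No paired analysis was possible because each group was 1 library, and for the same reason no library could be left out. Genes with few read pairs, such as Hsc70-1 and Fst, have wide counting intervals.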

Other observations

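Some mitochondrial chaperone genes, picked after their values were seen, are given as values only. Beside l(2)tid at 1.20 and Hsc70-5 at 0.65, the chaperonin Hsp60 had 18180 control and 20498 brat RNAi read pairs at 0.43 (0.41 to 0.46). Trap1, the mitochondrial Hsp90, was at 0.27 (0.19 to 0.36), and CG11267, the Hsp10 partner of Hsp60, at 0.02 (-0.05 to 0.09). The 8 subunits of the cytosolic chaperonin CCT, which folds actin and tubulin, had log2 ratios from 0.18 to 0.30, with Cct5 at the upper end. Over 16 measured chaperonin and prefoldin genes the median was 0.20, or 0.06 with total count scaling; none was 2-fold apart.

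Lists of other stress pathways had medians nearer 0 or below it. The 19 measured genes of the unfolded protein response of the endoplasmic reticulum had a median log2 ratio of -0.08, or -0.22 with total count scaling. None of these was 2-fold apart, and Crc, the chaperone calreticulin, was at -0.04. The 19 measured genes of oxidative and metal stress had a median of -0.14, or -0.28 with total count scaling. Among them foxo, a transcription factor of insulin signalling, was at least 2-fold higher with 343 and 640 read pairs at 1.16 (0.97 to 1.35). The peroxiredoxin gene Jafrac1 was at -0.48 on 13957 and 8375 read pairs, and the thioredoxin reductase gene Trxr-1 at -0.01. The 7 measured ubiquitin genes had a median of -0.07, with none 2-fold apart and with RpL40 and RpS27A, ubiquitin fused to ribosomal proteins, both at -0.20. Of 9 other stress-inducible genes 3 were measured. Among these Fst, a cold-inducible gene, had 20 and 2 read pairs at -3.06 (-6.20 to -1.02), Gadd45, a stress response gene, was at 0.77 and ref(2)P, an autophagy receptor, at 0.14.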
